A study of Mus musculus with 9 samples.

Results

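Liver X receptors (LXRs) sense cholesterol through its oxidized derivatives, the oxysterols, and act with a retinoid X receptor (RXR) partner on genes that move cholesterol out of the cell and build fatty acids. Macrophages depend on these genes because they take up whole dying cells and their membrane lipid. In the fetal liver, macrophages engulf the nuclei that maturing erythroblasts expel. Here, 10 genes known as LXR targets were followed in sorted fetal liver macrophages: *Abca1*, *Abcg1*, *Mylip*, *Apoe*, *Apoc1*, *Lpcat3*, *Pltp*, *Scd1*, *Scd2* and *Srebf1*. They were chosen by name, and their Ensembl identifiers were matched through GENCODE. All 10 had a row among the 13708 genes of the deposited table, and all 10 were among the 13594 genes tested.

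The samples were macrophages of mouse embryos at E15.5, sorted as CD45+ F4/80+ CD11blow cells and measured by bulk RNA-seq. The paper reports that the sort took in both Tim4hi and Tim4lo cells. It describes the Tim4lo cells in *Mrc1*Cre *Xpr1*fl/fl embryos, in addition to Tim4hi cells as seen in controls. There were 5 samples of *Mrc1*Cre *Xpr1*fl/fl embryos (Cre+) and 4 samples of *Xpr1*fl/fl embryos (controls), which carry the floxed alleles without Cre. *Xpr1* encodes a phosphate exporter, and exon 2 of *Xpr1* is flanked by loxP sites in the inherited genotype of every one of these samples. The paper describes *Xpr1* as deleted in differentiated macrophages of the Cre+ genotype. The iCre of *Mrc1*Cre was inserted into the *Mrc1* locus itself, follows the expression of this mannose receptor gene (CD206) and is also active in endothelial cells. Cre strains were used as heterozygotes. Whether a sample is a single embryo or a pool is not given in the sources used here. Where samples do not come from separate embryos, the p-values measure only the spread between these samples. In bulk samples, fewer cells of a type and less RNA per cell cannot be told apart.

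Of the 10 genes, 5 were lower in Cre+ macrophages, 1 was higher and 4 did not pass the test. The lipoprotein genes *Apoc1*, *Pltp* and *Apoe*, the ubiquitin ligase gene *Mylip* and the desaturase gene *Scd1* fell, to between 29.4% (*Apoc1*) and 62.7% (*Apoe*) of the control mean. The cholesterol exporter gene *Abcg1* rose to 123% of the control mean. *Abca1*, *Scd2*, *Srebf1* and *Lpcat3* had means between 94.8% and 108% of the control mean. The test was limma on log2(normalized count + 1) with Benjamini-Hochberg adjustment over all 13594 genes and a threshold of 0.05. By the same test, 43.1% of all genes were called in either direction, 21.5% as higher and 21.6% as lower. The median log2 fold change of the 10 genes was −0.37, compared with 0.0050 for all genes tested.

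**Figure D1:**
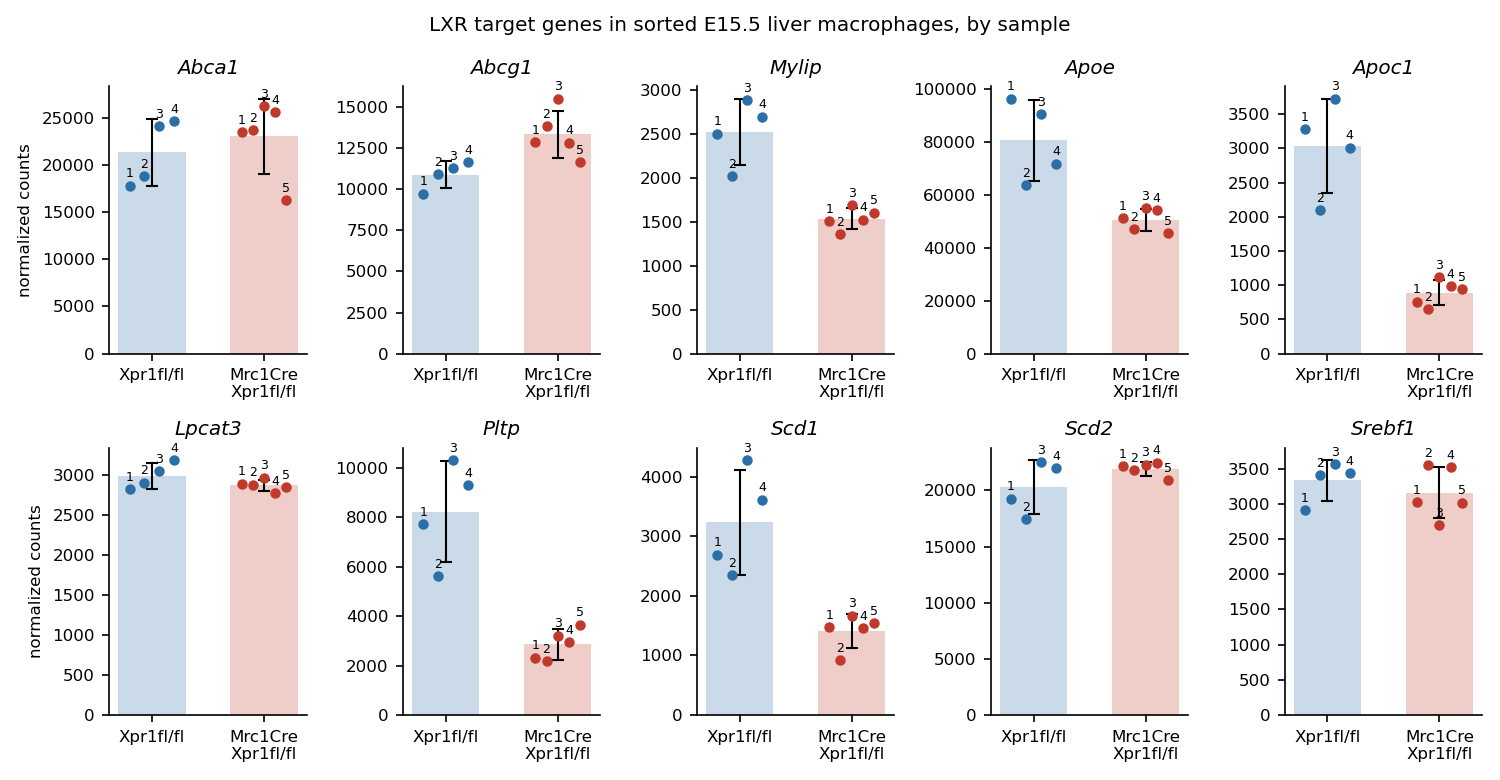
Normalized counts (y axes, from 0) of the 10 LXR target genes in each sample, with the sample number beside each point; bars are means and error bars are SD (4 control samples in blue, 5 Cre+ samples in red). The red and blue points are fully apart for *Mylip*, *Apoe*, *Apoc1*, *Pltp* and *Scd1*, and they overlap for the other 5 genes.

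The labels held for the targeted gene. *Xpr1* counts were 1074 to 1285 in Cre+ samples and 1781 to 2239 in control samples (log2 fold change −0.77, limma adjusted p = 4.13e-05). Counts are per gene, so transcripts without exon 2 can still be counted. *Mrc1*, which carries the Cre insertion, had 5923 to 9095 counts against 22144 to 28348. The macrophage genes *Adgre1* (F4/80), *Csf1r* and *Cd68* were abundant in both genotypes (means of 46581 and 46008, 84995 and 77103, and 13297 and 14648 normalized counts), and none of these passed the test. Of 16 macrophage markers, 8 were lower and 2 were higher, beside 21.6% and 21.5% of all genes tested. Those that fell included *Vsig4* (mean of 13.3 against 486) and *Timd4* (8464 against 15283), both marker genes of Kupffer cells, the resident macrophages of the liver. The column names of the table hold dates whose meaning is not stated. The earliest is that of control samples 1 to 3 and of Cre+ sample 5, the latest is that of Cre+ samples 1 to 4, and control sample 4 has a date of its own. With the date as a term, a fit compares only Cre+ sample 5 with control samples 1 to 3, and 8.78% of all genes were called.

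LXR–RXR pairs bind DNA at repeats of AGGTCA with 4 bases between them (DR4). The sequences around such repeats are shown as candidate sites of this factor near some of the 10 genes. Both strands of RefSeq promoter windows (GRCm38.p6, 250 bases before to 50 bases after each start) were searched for the 12 letters of the repeat. Of 32851 windows, 21.9% held a DR4 with at most 3 mismatches. Of the 10 genes, 6 had a window, and *Abcg1*, *Apoc1*, *Scd1* and *Scd2* had none. Among the 6, *Abca1* and *Srebf1* held such a DR4. These sites shared 14 of their 16 bases, GGGTTACTNNCGGTCA, and this pattern was then searched on both strands of 21 chromosomes of GRCm39 (2.65 Gb). The pattern was chosen after the expression values were seen, and its matches at the starts of *Abca1* and *Srebf1* are the sites it was read from. It occurred exactly 10 times, and 6 of these sites lay within 1 of the genes described here or 10 kb of it: 3 at *Abca1* and 1 each at *Abcg1*, *Scd2* and *Srebf1*. With 1 mismatch it occurred a further 162 times, and sites then also lay near *Apoe* and *Apoc1*, which share a site, and *Scd1*. No site with 0 or 1 mismatch to this pattern lay within 10 kb of *Mylip*, *Lpcat3* or *Pltp*. Other forms of the DR4 were searched only in the promoter windows, so this does not show that these genes lack a site. In the sequences of GRCm39 below, capitals mark the site in the orientation of the pattern, and mismatches are to the pattern. Against the AGGTCA repeat itself, the site at *Apoc1* and *Apoe* had 2 mismatches. The sites printed for *Abca1*, *Srebf1*, *Abcg1*, *Scd2* and *Scd1* had 3.
*Abca1*, at position −54 from the gene start, chr4:53159925-53159984, plus strand: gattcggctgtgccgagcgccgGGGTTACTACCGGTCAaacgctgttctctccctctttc
*Srebf1*, within the gene and at −180 from an internal transcript start, chr11:60101442-60101501, plus strand: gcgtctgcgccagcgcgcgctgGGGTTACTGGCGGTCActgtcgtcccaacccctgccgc
*Abcg1*, within an intron at 15817 from the gene start, chr17:31292437-31292496, plus strand: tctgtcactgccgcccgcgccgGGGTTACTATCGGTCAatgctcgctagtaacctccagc
*Scd2*, at −8923 from the gene start, chr19:44272661-44272720, plus strand: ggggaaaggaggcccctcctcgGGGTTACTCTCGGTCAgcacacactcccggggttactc
*Apoc1* and *Apoe*, at −123 from the *Apoc1* start, 1 mismatch, chr7:19427422-19427481, minus strand: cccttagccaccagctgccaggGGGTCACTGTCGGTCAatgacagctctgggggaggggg
*Scd1*, beyond the 3′ end of the gene, 1 mismatch, chr19:44377100-44377159, minus strand: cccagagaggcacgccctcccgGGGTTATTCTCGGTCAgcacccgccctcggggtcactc

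Within 10 kb of an exact match lay 9 tested genes, of which *Abcg1* was higher and *Dnajc9* was lower. The 9 include *Abca1* and *Srebf1*, from which the pattern was read. The other tested genes at exact matches were *Abca1*, *Scd2*, *Srebf1*, the fatty acid synthase gene *Fasn*, *Ccdc57*, *Fam149b* and *Mrps16*, and none of these passed the test. *Fasn*, also known as an LXR target, had means of 3021 and 2896 normalized counts (log2 fold change 0.05, limma adjusted p = 0.745). Of the 91 tested genes within 10 kb of a site with 0 or 1 mismatch, 21 were higher and 26 were lower. Among all genes tested, 21.5% were higher and 21.6% were lower, the background for these and for the 9 genes at exact matches. A sequence match is a description and shows no binding.

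Neither cholesterol exporter passed the test as lower. *Abca1* (ENSMUSG00000015243, GRCm39 chr4:53030787-53159900, minus strand) encodes the transporter that loads cholesterol and phospholipid onto lipid-poor apolipoprotein A-I. Its normalized counts were 23454, 23673, 26187, 25552 and 16221 in Cre+ samples 1 to 5 and 17798, 18756, 24121 and 24621 in control samples 1 to 4. Cre+ sample 5 was the lowest of all 9 samples, and the genotypes overlapped. For *Abca1* the log2 fold change was 0.11 (standard error 0.14, 95% confidence interval −0.21 to 0.42, limma adjusted p = 0.587). Without Cre+ sample 5 it was 0.23 (adjusted p = 0.102), and in the fit with the date, which rests on that sample, it was −0.31 (adjusted p = 0.231).

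*Abcg1* (ENSMUSG00000024030, GRCm39 chr17:31276649-31336969, plus strand) encodes a half-transporter that moves cholesterol towards high-density lipoprotein. It had 12886, 13874, 15530, 12855 and 11646 normalized counts in Cre+ samples and 9740, 10938, 11283 and 11653 in control samples. The lowest Cre+ sample (sample 5) lay just under the highest control sample, and the other 4 lay above all controls. The log2 fold change of *Abcg1* was 0.29 with a standard error of 0.08 (limma adjusted p = 0.0145). The call was lost after quantile normalization (0.19, adjusted p = 0.0809) and in the fit with the date (0.13, adjusted p = 0.536).

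The secreted lipoprotein genes *Apoe*, *Apoc1* and *Pltp* fell. *Apoe* (ENSMUSG00000002985, GRCm39 chr7:19430034-19434947, minus strand) encodes apolipoprotein E, which accepts cholesterol from macrophages and serves in the clearance of lipoprotein particles. Its normalized counts were 51145, 46889, 54946, 54101 and 45478 in Cre+ samples and 96280, 63645, 90417 and 71785 in control samples. Every Cre+ sample was below every control, and the controls were spread more widely (SD 15356 around 80532) than the Cre+ samples (SD 4225 around 50512). The log2 fold change of *Apoe* was −0.66 with a standard error of 0.12 (limma adjusted p = 0.00120), and it passed with the date as a term (−0.85, adjusted p = 0.0292).

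*Apoc1* (ENSMUSG00000040564, GRCm39 chr7:19422540-19427328, minus strand) encodes a small apolipoprotein that slows the uptake and breakdown of triglyceride-rich particles. In Cre+ samples it had 759, 650, 1122, 985 and 937 normalized counts, and in control samples 3281, 2100, 3727 and 3012. The highest Cre+ sample was far below the lowest control. This was the largest change among the 10 genes (log2 fold change −1.76 with a standard error of 0.18, limma adjusted p = 4.11e-05), and it passed with the date as a term (−1.65, adjusted p = 0.0160).

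*Pltp* (ENSMUSG00000017754, GRCm39 chr2:164677702-164701743, minus strand) encodes phospholipid transfer protein, which remodels high-density lipoprotein. Its normalized counts were 2311, 2183, 3207, 2939 and 3652 in Cre+ samples and 7724, 5598, 10294 and 9273 in control samples. The genotypes were apart, with Cre+ sample 5 nearest to the controls. This gave *Pltp* a log2 fold change of −1.51 with a standard error of 0.19 (limma adjusted p = 0.000115). With the date as a term it was −1.06 and did not pass (adjusted p = 0.0510).

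*Mylip* (ENSMUSG00000038175, GRCm39 chr13:45543215-45565501, plus strand) encodes a ubiquitin ligase through which LXR limits the uptake of lipoprotein cholesterol. It had 1507, 1353, 1685, 1522 and 1600 normalized counts in Cre+ samples and 2499, 2012, 2881 and 2693 in control samples. No sample of either genotype reached the range of the other. *Mylip* changed by a log2 fold of −0.71 with a standard error of 0.10 (limma adjusted p = 0.000248). Fitted with the date it did not pass (−0.61, adjusted p = 0.0602).

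Among the genes of fatty acid and phospholipid synthesis, *Scd1* fell and the others did not pass the test. *Scd1* (ENSMUSG00000037071, GRCm39 chr19:44382894-44399154, minus strand) and *Scd2* (ENSMUSG00000025203, GRCm39 chr19:44281613-44295303, plus strand) encode desaturases that make monounsaturated fatty acids, and their 3′ ends lie 87.6 kb apart. *Scd1* had 1476, 923, 1670, 1460 and 1539 normalized counts in Cre+ samples and 2694, 2353, 4280 and 3615 in control samples. Cre+ sample 2 stood below the other 4, and all 5 were below every control. The log2 fold change of *Scd1* was −1.18 with a standard error of 0.19 (limma adjusted p = 0.000685). Fitted with the date it did not pass (−0.96, adjusted p = 0.110).

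*Scd2* had 22143, 21775, 22306, 22465 and 20910 normalized counts in Cre+ samples and 19276, 17430, 22520 and 21983 in control samples. The control range enclosed that of the Cre+ samples at its upper part. The log2 fold change of *Scd2* was 0.12 (95% confidence interval −0.04 to 0.28, limma adjusted p = 0.219), an interval apart from that of *Scd1* (−1.61 to −0.76). Of the 31-base stretches in their annotated transcripts, 5.87% for *Scd1* and 4.72% for *Scd2* occur in transcripts of other genes, mainly *Scd3*, so part of their reads could be split between these genes. For the other 8 genes this share was at most 2.34%.

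*Srebf1* (ENSMUSG00000020538, GRCm39 chr11:60089913-60113407, minus strand) encodes SREBP1, the transcription factor through which LXR drives fatty acid synthesis. Its normalized counts were 3021, 3548, 2701, 3518 and 3018 in Cre+ samples and 2913, 3413, 3565 and 3442 in control samples. The genotypes overlapped over most of their ranges, with a log2 fold change of −0.08 (95% confidence interval −0.27 to 0.11, limma adjusted p = 0.495). Counts per gene do not separate the transcripts of *Srebf1* that start at its different promoters.

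*Lpcat3* (ENSMUSG00000004270, GRCm39 chr6:124639765-124684440, plus strand) encodes an enzyme that places polyunsaturated fatty acids into phospholipids. It had 2886, 2873, 2963, 2768 and 2847 normalized counts in Cre+ samples and 2822, 2898, 3041 and 3180 in control samples. The samples overlapped in a narrow range. On the log2 scale *Lpcat3* differed by −0.06 (95% confidence interval −0.16 to 0.05, limma adjusted p = 0.373). It passed as lower after scaling to the 75th percentile (−0.14, adjusted p = 0.0312) and after quantile normalization (−0.16, adjusted p = 0.0164).

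**Figure D2:**
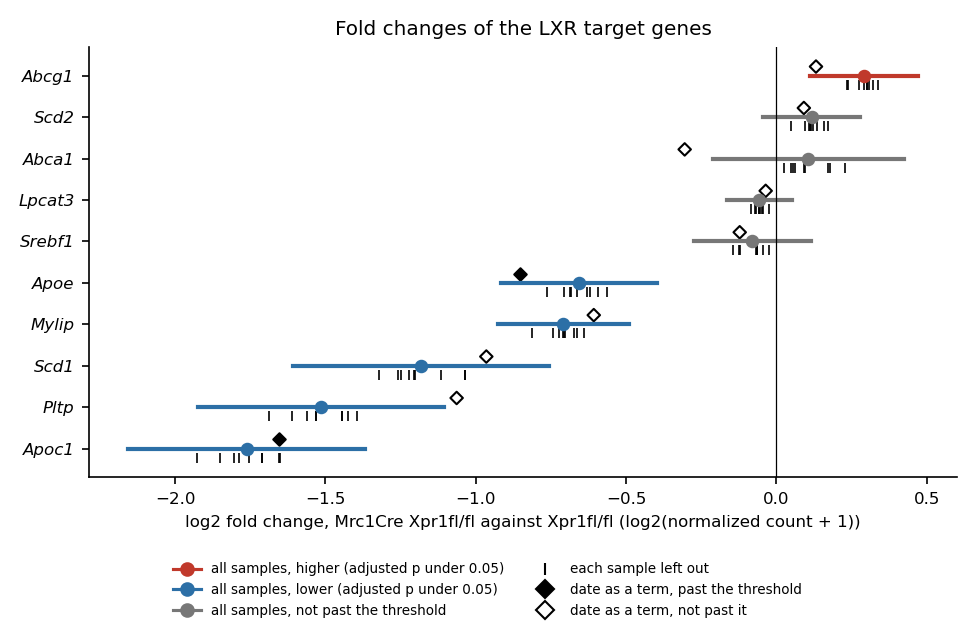
Log2 fold changes (x axis, Cre+ against control on log2(normalized count + 1)) of the 10 genes with 95% confidence intervals (circles and lines), with each sample left out in turn (ticks) and in the fit with the date (diamonds). The 5 genes at the bottom stay left of 0 in every fit shown, *Apoe* and *Apoc1* pass the threshold in every fit, and *Abca1* lies on either side of 0.

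The groups did not overlap for 5 of the 10 genes, all lower, and 34.1% of all genes tested had genotypes that did not overlap. With each sample left out in turn, limma called 6 of the 10 genes in all 9 fits, 1 as higher and 5 as lower. With the date as a term it called 2, both lower. After quantile normalization 6 of the 10 were called lower and 0 higher, and after scaling to the 75th percentile 6 were lower and 1 was higher. control sample 2 was the lowest control for all 5 genes that fell and for *Scd2*. Cre+ sample 2 was the lowest of its genotype for *Mylip*, *Apoc1*, *Pltp* and *Scd1*, and Cre+ sample 5 was the lowest for *Apoe*.

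Per kilobase of annotated exon, *Apoe* was the most abundant of the 10 in control samples, with a level of 19894 ± 3793 normalized counts per kb (SD, n = 4). *Scd2* (2697 ± 317), *Abca1* (1737 ± 289), *Abcg1* (1414 ± 107), *Apoc1* (1398 ± 317), *Pltp* (1394 ± 347), *Mylip* (759 ± 113), *Srebf1* (565 ± 48.8), *Scd1* (449 ± 122) and *Lpcat3* (375 ± 19.9) followed. The levels of *Abcg1*, *Apoc1* and *Pltp* differed by less than their spread, as did those of *Srebf1* and *Scd1* and of *Scd1* and *Lpcat3*. In Cre+ samples *Apoe* still had the highest level (12478 ± 1044 per kb, n = 5) and *Scd2* the next (2912 ± 82.3). *Apoc1* (411 ± 86.2) and *Pltp* (485 ± 104), which were close to *Abcg1* in controls, were then below it (1733 ± 188). The length of annotated exons can exceed that of the transcripts used in these cells.

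The genes around the 10 targets are described by list. Among all genes tested, 21.5% were higher and 21.6% were lower, the background for each count. In the list of receptors, RXR partners and cofactors, 9 of 18 tested genes rose and 1 fell (median log2 fold change 0.22). The list holds both coactivators and corepressors, and genes of both kinds rose. *Nr1h3*, which encodes LXRα, had 10289, 10127, 10255, 9512 and 10622 normalized counts in Cre+ samples and 8283, 7812, 7360 and 8031 in control samples. All 5 samples lay above all 4 controls, with a log2 fold change of 0.37 with a standard error of 0.05 (limma adjusted p = 0.000219). *Nr1h2*, which encodes LXRβ, had means of 1953 ± 180 (SD, n = 5) and 1999 ± 163 (SD, n = 4), and *Rxra*, the main RXR partner gene in macrophages, had means of 17246 ± 276 and 16428 ± 387. Their limma adjusted p-values were 0.744 and 0.198. The coactivator gene *Ncoa1* (log2 fold change 0.48) and the acetyltransferase gene *Ep300* (0.56) rose, with limma adjusted p-values of 0.000546 and 0.00135. Fitted with the date, 2 genes of this list passed, among them *Nr1h3* (0.44, adjusted p = 0.0154), and *Ncoa1* (adjusted p = 0.111) and *Ep300* (adjusted p = 0.206) did not.

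Of the enzymes that make or use up sterol ligands of LXR, 5 of 9 were tested here, and 3 of these fell. *Hsd3b7*, which acts on oxysterols on the way to bile acids, had 347, 316, 457, 406 and 445 normalized counts against 931, 876, 1027 and 951. The genotypes were far apart (log2 fold change −1.27, limma adjusted p = 2.02e-05). In the fit with the date it was −1.08 (adjusted p = 0.0113). *Cyp27a1*, which makes an oxysterol, fell by 0.26 (limma adjusted p = 0.0378), a call lost in 6 of 20 alternative fits. *Cyp11a1*, the enzyme that starts steroid hormone synthesis, had 3.18 to 16.1 normalized counts in all samples and was not called (limma adjusted p = 0.263).

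Further known LXR targets were split. Of 18 tested, 5 rose and 10 fell (median log2 fold change −0.22). *Lpl*, which encodes lipoprotein lipase, had 57533, 54843, 62477, 53774 and 48608 normalized counts against 38174, 34175, 34885 and 35130. Every Cre+ sample was above every control (log2 fold change 0.64, limma adjusted p = 8.03e-05). In the fit with the date it was 0.45 (adjusted p = 0.0345). The fatty acid elongase gene *Elovl5* also rose (0.38, limma adjusted p = 0.000211), a call lost in the fit with the date (0.31, adjusted p = 0.0649). *Smpdl3a*, which encodes a secreted phosphodiesterase, fell by 0.58 on the log2 scale (limma adjusted p = 0.000240) and passed with the date as a term (−0.58, adjusted p = 0.0342). The desaturase gene *Fads1* fell by 0.43 (limma adjusted p = 0.000376), a call that the fit with the date also ended (−0.38, adjusted p = 0.0702).

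In the list for cholesterol storage, release and transport, 7 of 23 genes rose and 6 fell (median log2 fold change −0.09). The oxysterol-binding protein genes *Osbpl8* (0.46) and *Osbp* (0.27) rose, with limma adjusted p-values of 0.000215 and 0.000884. *Apoa1*, which encodes the acceptor of cholesterol exported by ABCA1 and is a gene of hepatocytes, had 865, 636, 615, 707 and 850 normalized counts against 1439, 1358, 1600 and 2724 (log2 fold change −1.23, limma adjusted p = 0.000431). *Apoa1* is also among the hepatocyte markers below. So are *Apoa2* and *Apob*, which belong to this list and fell as well (log2 fold changes −1.25 and −0.87). *Gramd1c*, which encodes a sterol transfer protein of membrane contacts, fell by 1.02 (limma adjusted p = 0.000670). In the fit with the date *Apoa1* was the 1 gene of this list that passed (−0.78, adjusted p = 0.0268), and *Osbpl8* (0.28, adjusted p = 0.0776), *Osbp* (0.20, adjusted p = 0.144) and *Gramd1c* (−0.79, adjusted p = 0.110) did not.

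Sterol synthesis genes under SREBP2, which are known to be repressed by sterols while LXR targets are induced, showed 6 of 22 higher and 3 lower (median log2 fold change 0.05), a share called close to the 43.1% of all genes. None of the 22 passed in the fit with the date, in which limma gave 2 an unadjusted p under 0.05. The squalene synthase gene *Fdft1* fell by 0.54 on the log2 scale (limma adjusted p = 0.00103). *Scap*, the escort protein of SREBP, rose (0.28, limma adjusted p = 0.00968), as did *Tmem97* (0.21, limma adjusted p = 0.0109). After scaling to the 75th percentile the split of this list turned to 2 higher and 5 lower. The same scaling changed that of cholesterol transport to 4 higher and 8 lower (5 and 8 after quantile normalization), and that of all genes from 49.9% to 34.6% of calls as higher.

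**Figure D3:**
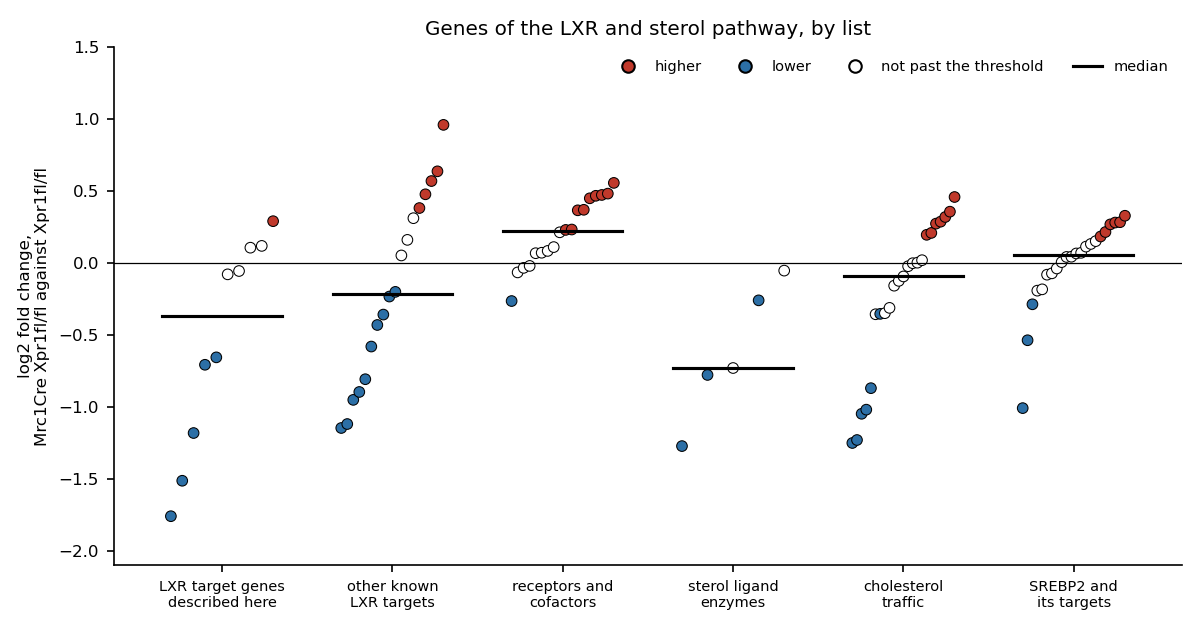
Log2 fold changes (y axis, Cre+ against control on log2(normalized count + 1)) of each tested gene in the 6 groups, coloured by the limma call, with the median of each group as a line. The 10 target genes have a median of −0.37 with 5 blue points and 1 red point, and the receptors and cofactors a median of 0.22 with 9 red points and 1 blue point.

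*Apoe* and *Apoc1* are neighbours on the minus strand of chromosome 7, and the *Apoc1* start lies 2.7 kb beyond the *Apoe* end. The genes around them were chosen for description after their values were seen. Within 100 kb of the *Apoe* start, 6 of 11 tested genes were lower (*Apoe* and *Apoc1* included) and 3 were higher. Among all genes tested, 21.6% were lower and 21.5% were higher. *Apoc2* and *Apoc4* are also counted among the further LXR targets above. The apolipoprotein genes *Apoc2*, an activator of lipoprotein lipase (log2 fold change −0.81, limma adjusted p = 0.00141), and *Apoc4* (−0.95, limma adjusted p = 0.0237) fell with means of 150 against 261 and 26.9 against 55.2 normalized counts. Both have far lower counts than *Apoe*, and the *Apoc4* samples overlapped. *Apoc2l*, an annotated gene that overlaps *Apoc2* and *Apoc4*, had means of 8.01 and 17.7 and was not called (limma adjusted p = 0.115); reads could be split between these 3 genes. Beyond the apolipoprotein genes, the adhesion genes *Nectin2* (−1.16) and *Bcam* (−2.06) also fell, with limma adjusted p-values of 0.000108 and 0.00169. The mitochondrial import gene *Tomm40*, which lies next to *Apoe*, rose (0.25, limma adjusted p = 0.0104), as did the NF-κB subunit gene *Relb* (0.55) and *Clptm1* (0.21). The fit with the date kept the calls of *Nectin2*, *Bcam* and *Relb* (adjusted p = 0.0130, 0.0332 and 0.0464) and ended those of *Apoc2*, *Apoc4*, *Tomm40* and *Clptm1* (0.239, 0.392, 0.0712 and 0.530).

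**Figure D4:**
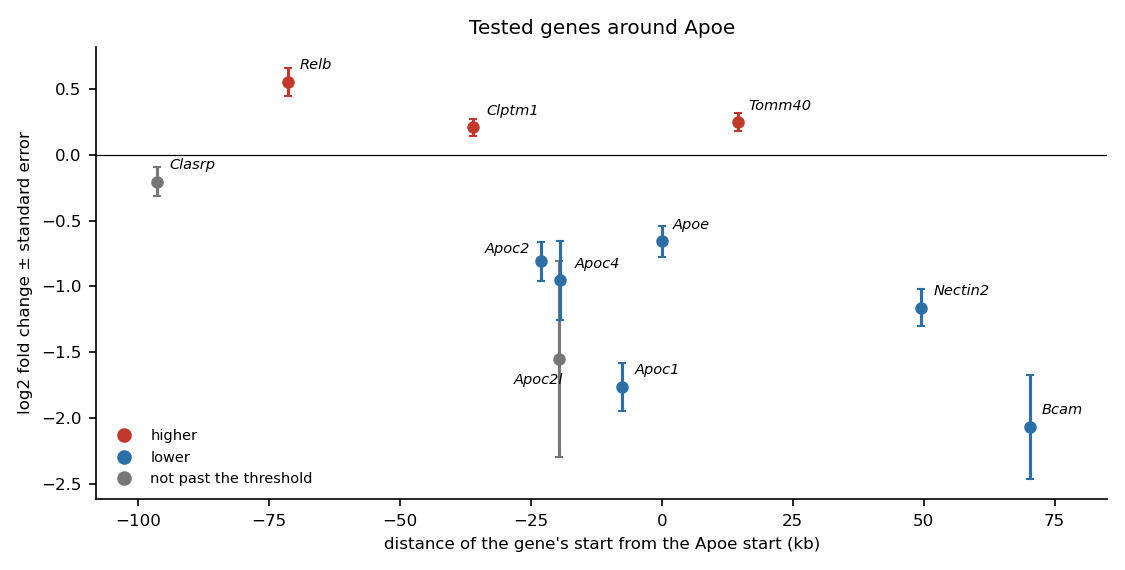
Log2 fold change ± standard error (y axis, Cre+ against control) of the 11 tested genes with a start within 100 kb of the *Apoe* start, by the distance of their starts from it in kb (x axis, positive towards higher coordinates). *Apoe*, *Apoc1*, *Apoc2*, *Apoc4*, *Nectin2* and *Bcam* are below 0 in blue, and *Tomm40*, *Relb* and *Clptm1* are above 0 in red.

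Markers of other liver cells moved with the genes that fell. Hepatocytes also express *Apoe*, *Apoc1*, *Pltp* and *Scd1*. For the counts of markers, the background is 21.6% of all genes tested as lower and 21.5% as higher. All 14 hepatocyte markers were lower in Cre+ samples, and their summed level was 17158 to 24341 normalized counts against 35232 to 71900 in control samples. All 13 erythroid markers tested were lower, with a sum of 91939 to 304694 against 399315 to 639493, and so were 11 of 12 endothelial markers (6464 to 8594 against 10709 to 15244) and 6 of 7 stellate cell markers (549 to 932 against 1719 to 4827). Most of the endothelial sum was *Stab2* (means of 4793 in Cre+ and 8125 in control samples). The genotypes did not overlap for 5 of the 12 endothelial markers. Of 11 neutrophil and progenitor markers 5 were lower (5890 to 18881 against 10358 to 56247), and of 8 monocyte markers 4 were lower and 2 higher (15505 to 21636 against 13355 to 15752). The summed macrophage markers were 316112 to 353235 against 372346 to 489364. No marker tested was at 0 in any sample, and the defining hepatocyte genes *Alb* and *Afp* had means of 8475 and 6703 in Cre+ samples and 18823 and 14851 in control samples. control sample 2, the lowest control for the 5 genes that fell, also had the lowest control sum of hepatocyte, erythroid, endothelial, stellate and macrophage markers. control sample 4 had by far the highest hepatocyte sum (71900, with 35232 to 39202 in the other 3) and was not the highest control for any of the 5 genes. The part of these cells in the lower levels of *Apoe*, *Apoc1*, *Pltp*, *Scd1* and *Mylip* was not tested.

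**Figure D5:**
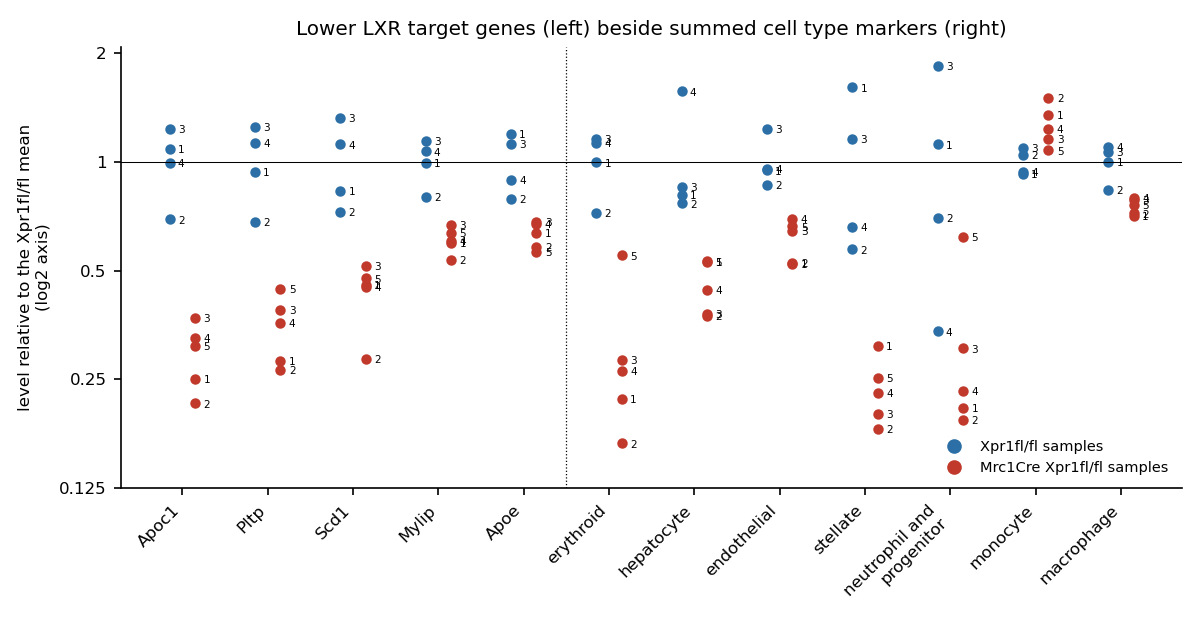
Levels relative to the *Xpr1*fl/fl mean (y axis, log2 spacing) of the 5 genes that fell and of the summed markers of 7 cell types, by sample, with sample numbers (*Xpr1*fl/fl in blue, *Mrc1*Cre *Xpr1*fl/fl in red). Red and blue are apart for the 5 genes and for erythroid, hepatocyte, endothelial, stellate and macrophage sums, and they overlap for neutrophil and progenitor and for monocyte sums.

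For each of the 10 genes, the genes with the most similar pattern were found among tested genes whose mean reached 50 normalized counts, by Pearson's r over the 9 samples on log2(normalized count + 1). The nearest were *Adcy3* for *Apoc1* (r = 0.999), *E2f2* for *Pltp* (0.996), *F5* for *Scd1* (0.988) and *Abhd14b* for *Apoe* (0.986). For the genes that did not fall they were *Apc* for *Abcg1* (0.978), *Tnfrsf1b* for *Scd2* (0.970), *Hipk1* for *Abca1* (0.945), *Slc45a4* for *Lpcat3* (0.935) and *Raph1* for *Srebf1* (0.924). Next came *Urod*, an enzyme of heme synthesis, for *Pltp* (0.995), and *Tmem65* was among the nearest genes of both *Mylip* (0.994) and *Scd1* (0.986). These values describe 9 samples of 2 genotypes, and for the genes whose genotypes did not overlap r includes the difference between the genotypes. Each r is among the highest of a search over many genes. How high r would reach by chance in such a search was not tested.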

How the data were processed

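Bulk RNA-seq libraries of sorted E15.5 liver macrophages were made from 45 ng of total RNA per sample (5 *Mrc1*Cre *Xpr1*fl/fl, 4 *Xpr1*fl/fl). The authors ran FastQC on the reads and salmon on GRCm39 transcripts, passed the estimates through tximport and divided the counts by DESeq2 normalization factors. The deposited values are this signal, in normalized counts per gene. The lowest mean of a listed gene was 5.79, and a filter on low counts and tool versions are not given in the sources used here. Columns were matched to samples by name, with 0 columns of no mapped sample. Groups came from sample titles. Totals (26942921 to 28309443 normalized counts) reflect the normalization. Values under 10 lay near whole multiples of a spacing in too few cases to recover reads, so absolute depth is unknown and no count test was run. The correlation between samples was 0.947 to 0.986, and no pair was counted as a repeat.

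To compare the genotypes, log2(normalized count + 1) was fitted with lmFit of limma 3.58.1 (R 4.3.3) and moderated by eBayes with a trend. A gene was tested where at least 4 samples reached 10 normalized counts. Adjustment of p-values followed Benjamini and Hochberg over 13594 genes (threshold 0.05). A pseudocount of 1 slightly understates the change of low genes. The procedure was tested on simulated data. Symbols and coordinates came from GENCODE release M39 (13698 genes with a symbol, 10 without). The 10 genes and the lists were chosen with earlier results of these data known. All 10 genes were named. The 4 genes of each list with the lowest adjusted p were named, with *Nr1h3*, *Nr1h2* and *Rxra* always, except for some genes that are not reported here. *Fasn* and other genes at sequence matches, the *Apoe* neighbours and the individual cell markers are not covered by that rule and were picked with their values in view. *Rxrg*, *Ch25h*, *Cyp46a1*, *Cyp7b1*, *Sult2b1*, *Abcg5*, *Abcg8*, *Cyp7a1*, *Ccr7*, *Ahsp* and *Rgs5* of the lists had no row under these symbols in the deposited table and could not be tested. Alternatives changed the pseudocount (0.5 or 10), the filter (none, or a minimum of 50), the scaling (75th percentile or quantiles) and the variance model (no trend, robust, array weights), added the replicate number as a block or the date as a term, or left out each sample. Python 3.11.15 with matplotlib 3.10.9 drew the figures.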

Additional observations from a re-analysis of the deposited data

Results flagged for a closer look

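Within each genotype, a sample was looked at again where its gap to the nearest other sample took up most of the range of the group (Dixon's criterion at 95%). This was run for 58 groups (the named genes in each genotype), 5 were picked out, and chance alone picks out about 1 in 20 (2.9 here). Among the 10 LXR target genes, *Abca1* was lowest in Cre+ sample 5 (16221 normalized counts, others 23454 to 26187). *Scd1* was lowest in Cre+ sample 2 (923, others 1460 to 1670). Among the other genes, *Nr1h2* was highest in Cre+ sample 5 (2260, others 1802 to 1925), *Ep300* was lowest in control sample 1 (3300.3, others 4193 to 4287) and *Cyp11a1* was lowest in control sample 4 (3.75, others 15.6 to 16.1).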

How the results depend on the processing

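Of 20 alternatives, 19 kept the number of genes called within 1.5 times for all genes, for the 10 LXR target genes and for the 5 lists, and the date as a term moved all 7 counts. With the date as a term limma called 1194 genes, 2 of the 10 targets, 2 receptors or cofactors, 1 ligand enzyme, 3 further targets, 1 gene of cholesterol transport and 0 SREBP2 genes (2 SREBP2 genes at an unadjusted p under 0.05). That term leaves 1 Cre+ sample beside controls of its date, so date and genotype can hardly be told apart. It also turned the log2 fold change of *Abca1* to −0.31 and that of *Nr1h2* to 0.21, and scaling to the 75th percentile turned that of *Rxra* to −0.011. The cause was not tested. Leaving out each sample in turn gave 4815 to 6081 genes called, 6 of the 10 targets each time, 8 to 10 receptors or cofactors, 2 to 3 ligand enzymes, 12 to 15 further targets, 11 to 14 genes of cholesterol transport and 8 to 9 SREBP2 genes. Scaling to the 75th percentile shifted the median log2 fold change of all genes by −0.08. Of the receptors and cofactors, 7 were then higher and 1 lower, and of the further targets 5 and 10. *Cyp11a1* had too few counts to be tested in 5 of the alternatives.

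Same-numbered samples did not deviate together (correlations of −0.03 to 0.15 over genes, with 1 of 4 numbers matching best), so the numbers do not pair the samples. With the replicate number as a block, in which Cre+ sample 5 has no partner, 6226 genes and 7 of the 10 targets were called, and *Abca1* passed as higher (0.23, adjusted p = 0.0254). Absolute depth is unknown, so no limit from counting error can be given for low genes.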
